A study of Mus musculus with 16 samples.

Results

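The pyruvate dehydrogenase genes described here are 10 mouse genes chosen by symbol: the kinases Pdk1, Pdk2, Pdk3 and Pdk4, the phosphatases Pdp1 and Pdp2, and the complex subunits Pdha1, Pdhb, Dlat and Pdhx. All 10 were found among the 55416 rows of the expression table, and 9 of them were among the 11858 genes with enough signal to be tested. Pdk3 was not, because it stayed below 1 TPM, a level per transcript length scaled to a fixed total, in every sample. RNA was measured in 16 cultures of primary mouse hepatocytes, the parenchymal cells of the liver, in 4 groups of 4. HKO cells given 0.4 mM palmitic acid and HKO cells given vehicle carried Alb-cre together with the floxed Smpd3 gene. FLOX cells given 0.4 mM palmitic acid and FLOX cells given vehicle were labelled Alb-cre negative. Treatment lasted 24 h in all groups. Albumin-driven Cre acts in hepatocytes, so Smpd3 (a neutral sphingomyelinase gene) would be kept in other liver cells that a preparation might hold, and the labels give no age, sex or strain of the mice. The study set the saturated fatty acid palmitate on these cells as a culture model of steatohepatitis and asked what the loss of Smpd3 changes in it.

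The pyruvate dehydrogenase complex sits in the mitochondrial matrix and turns pyruvate into acetyl-CoA, which commits carbon from glucose to the tricarboxylic acid (TCA) cycle or to fat synthesis. The kinases phosphorylate the E1 alpha subunit and switch the complex off, and the phosphatases take the phosphate away and switch it on. In liver, Pdk4 is known as a kinase gene that fasting and fatty acids induce, through nuclear receptors of the PPAR family among others. Messenger RNA says nothing of the phosphorylation state or the activity of the complex, neither of which was measured here.

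The upstream sequences of Pdk4 and Pdk2 are shown because these kinase genes moved in opposite directions with palmitic acid. Each line gives the 250 bases before the transcription start, 5′ to 3′ on the gene's strand, from RefSeq (build GRCm38.p6). Capitals mark matches to any of 6 short motifs on either strand.
Pdk4, chr6:5496279-5496528, minus strand: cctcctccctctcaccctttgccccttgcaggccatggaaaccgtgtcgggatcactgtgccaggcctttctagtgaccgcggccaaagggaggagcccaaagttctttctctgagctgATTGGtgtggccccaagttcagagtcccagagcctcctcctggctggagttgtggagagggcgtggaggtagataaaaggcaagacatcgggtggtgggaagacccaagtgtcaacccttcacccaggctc
Pdk2, chr11:95041372-95041621, minus strand, the more upstream of 2 starts: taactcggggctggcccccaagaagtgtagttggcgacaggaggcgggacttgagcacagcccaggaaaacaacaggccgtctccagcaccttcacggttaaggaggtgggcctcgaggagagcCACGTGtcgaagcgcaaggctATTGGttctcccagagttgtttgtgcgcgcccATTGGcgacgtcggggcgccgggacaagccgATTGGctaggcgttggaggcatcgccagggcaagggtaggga
The capitals in the Pdk4 line are 1 CCAAT box on the opposite strand. In the Pdk2 line they are 3 CCAAT boxes on the opposite strand and 1 CACGTG stretch, which reads ACGTG, the core of the hypoxia response element, on both strands in overlapping positions. Of the 32851 promoter windows of the same length in the reference, 33.8% held CCAAT and 16.6% held ACGTG. The other motifs searched were the nuclear receptor half-site AGGTCA (14% of all windows), the estrogen-related receptor element TCAAGGTCA (0.387%), the forkhead element GTAAACA (3.17%) and a direct repeat of the half-site with 1 base between (0.0335%). None of these letters stood in either window, which says nothing of sites elsewhere. The window of the other Pdk2 start held no match to any of the 6 motifs, and which start was in use is unknown. A promoter was listed for 9 of the 10 genes, and Pdp1 had none in the reference table used.

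Smpd3 itself followed the labels. It was at 7.82 ± 1.11 TPM in HKO cells with palmitic acid, against 46.0 ± 2.36 TPM in FLOX cells with palmitic acid, and at 5.29 ± 0.715 TPM in HKO cells with vehicle, against 32.0 ± 4.09 TPM in FLOX cells with vehicle (SD, n = 4 each). The depth of the libraries is unknown, because TPM keeps none. Between 11231 and 11498 genes reached 1 TPM per sample. The titles do not say whether the 4 samples of a group came from separate mice, and the spread behind every p-value could therefore be a technical one. Principal components 1, 2 and 3 held 31.6%, 11.6% and 7.53% of the variance, and on component 3 FLOX palmitic acid sample 1 lay at 19.0, beyond the next sample at 10.8. FLOX vehicle sample 1, at -16.1, had the lowest score there, with FLOX palmitic acid sample 2 next to it at -14.1. Hepatocyte markers identified the cells: the 10 genes of that list, led by Alb, summed to between 44820 and 62440 TPM in every sample. Markers of other cell types were present in part: 6 of 8 macrophage markers stayed under 1 TPM, with Timd4 at 0 in all 16 samples, while Cd68 averaged 66.6 TPM. Of 6 bile duct markers, Cftr was at 0 and Epcam under 1 TPM in every sample, while Spp1 averaged 230.2 TPM, Sox9 between 22.9 and 35.8 TPM per group and Krt19 between 5.03 and 11.9 TPM. In every sample 7 of 8 stellate cell markers and all 8 leukocyte markers stayed under 1 TPM, and endothelial markers summed to at most 5.47 TPM. Of 6 erythroid markers 3 stayed under 1 TPM in every sample, while Alas2 averaged 21.1 TPM. Of 8 muscle or fat markers 6 did, while Cidea averaged 2.44 TPM.

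Pdk4 was the most abundant kinase transcript with palmitic acid and the scarcest tested gene of the set with vehicle. In FLOX cells, Pdk4 (ENSMUSG00000019577) was at 20.8, 37.1, 44.4 and 25.9 TPM with palmitic acid, against 1.87, 2.08, 1.56 and 1.67 TPM with vehicle. In HKO cells it was at 23.8, 28.9, 23.9 and 30.9 TPM with palmitic acid, against 0.77, 0.96, 1.15 and 0.96 TPM with vehicle. Every sample with palmitic acid was far above every sample with vehicle, in both genotypes. The mean was 17.8-fold higher with palmitic acid in FLOX cells and 28.0-fold higher in HKO cells, from vehicle levels near 1 TPM that make the ratio imprecise. On the log2(TPM + 1) scale, which understates the change of a gene this low under vehicle, the difference was 3.51 ± 0.17 in FLOX cells (SE; limma adjusted p = 6.476e-10) and 3.82 ± 0.17 in HKO cells (limma adjusted p = 1.549e-10). The test of the difference between these responses, HKO minus FLOX, gave 0.32 on the log2 scale, with a 95% interval of -0.21 to 0.84 and an adjusted p of 0.844 (limma). The palmitic acid samples of FLOX cells spread over a wider range (SD 10.6 TPM) than those of HKO cells (SD 3.59 TPM).

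Pdk2, which with Pdk1 made up most of the kinase message under vehicle, fell with palmitic acid. In FLOX cells, Pdk2 (ENSMUSG00000038967) was at 4.92, 5.15, 6.58 and 7.0 TPM with palmitic acid, against 9.75, 10.35, 8.14 and 9.22 TPM with vehicle. In HKO cells it was at 11.3, 8.78, 7.82 and 7.04 TPM with palmitic acid, against 13.28, 16.41, 15.87 and 15.92 TPM with vehicle. The groups did not overlap in either genotype. Mean Pdk2 with palmitic acid was 63.1% of the vehicle mean in FLOX cells and 56.8% in HKO cells. The gene fell by 0.59 ± 0.13 on the log2 scale in FLOX cells (SE; limma adjusted p = 0.00227) and by 0.76 ± 0.13 in HKO cells (limma adjusted p = 0.000195).

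Pdk1, a kinase known as a target of the hypoxia factor HIF-1, fell in HKO cells, where it was at 10.21, 8.95, 11.73 and 10 TPM with palmitic acid, against 12.12, 14.7, 13.87 and 13.78 TPM with vehicle. That fall came to 0.38 ± 0.11 on the log2 scale (SE; limma adjusted p = 0.00964), and the groups did not overlap. In FLOX cells, Pdk1 (ENSMUSG00000006494) was at 5.58, 8.5, 6.47 and 6.98 TPM with palmitic acid, against 8.67, 8.69, 7.28 and 7.12 TPM with vehicle. These groups overlapped, and the log2 difference of -0.19 (95% interval -0.42 to 0.04) did not pass the test, with a limma adjusted p of 0.19. It did pass under median-ratio scaling (-0.28, adjusted p = 0.0402), under quantile normalization (-0.29, adjusted p = 0.025) and without FLOX palmitic acid sample 2 (-0.28, adjusted p = 0.0498). Without both FLOX libraries numbered 1 the difference was -0.067 (limma adjusted p = 0.653). The response of Pdk1 in HKO minus that in FLOX was -0.19 on the log2 scale, with an adjusted p of 0.844 (limma). Pdk3, the remaining kinase, ranged from 0.24 to 0.43 TPM with palmitic acid and from 0.21 to 0.70 TPM with vehicle in HKO cells, and from 0.16 to 0.26 TPM with palmitic acid and from 0.29 to 0.65 TPM with vehicle in FLOX cells. With every detected gene tested (25963 genes), the Pdk3 difference with palmitic acid in FLOX cells was -0.29 ± 0.10 on the log2 scale, with a limma adjusted p of 0.0666.

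**Figure D1:**
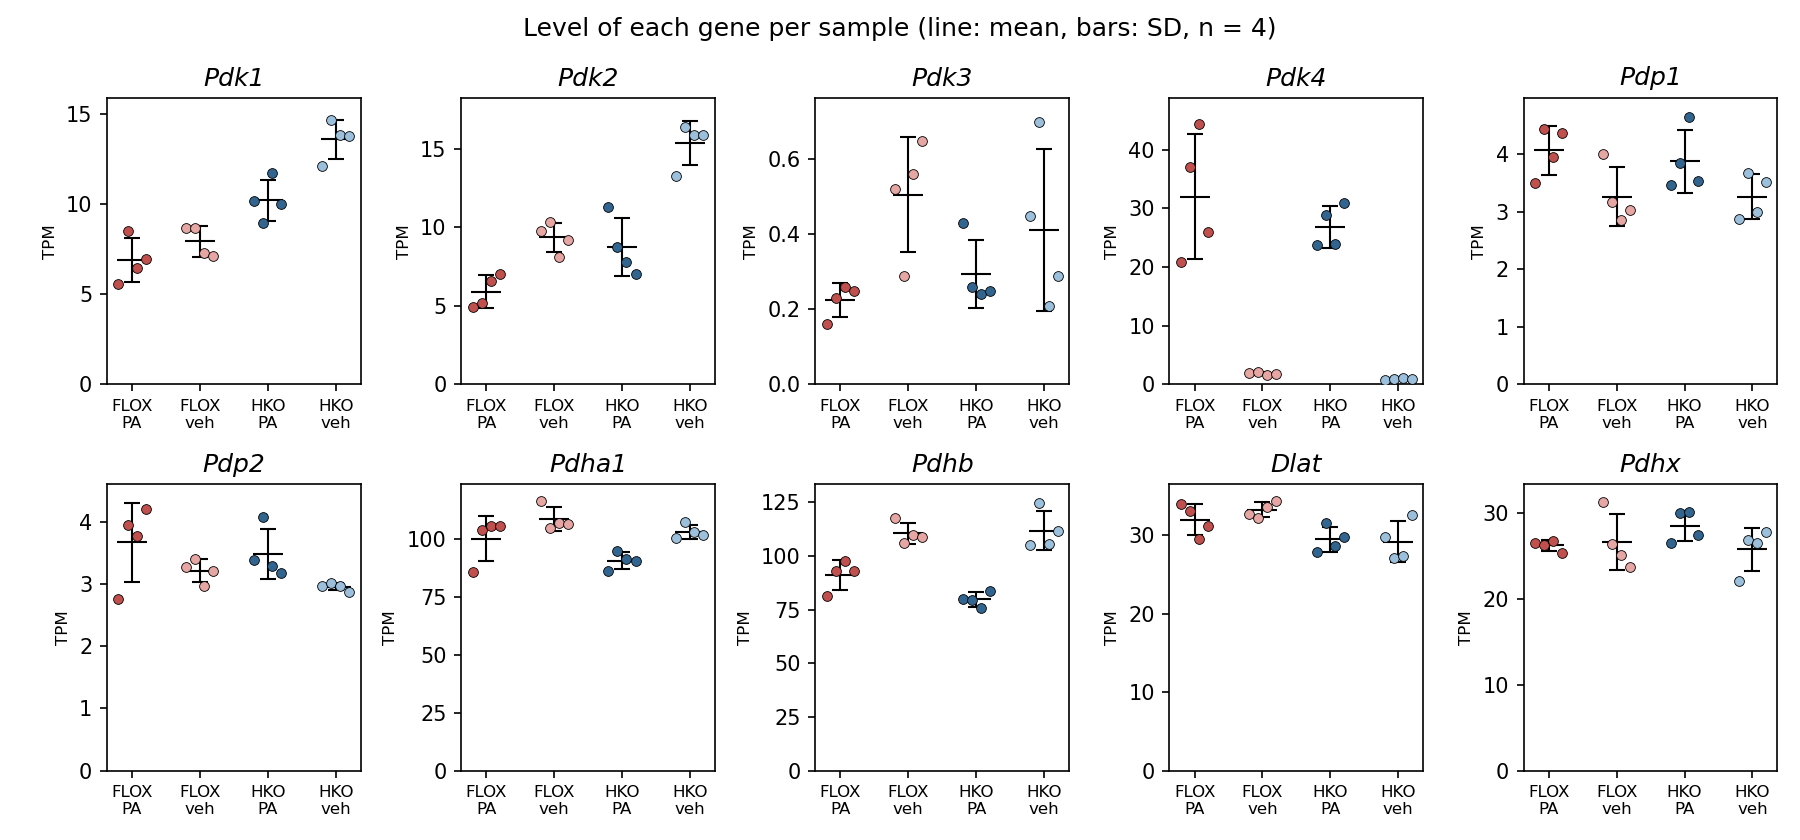
Level of each of the 10 genes in TPM (vertical axes, each from 0) in every sample of the 4 groups (horizontal axes, FLOX and HKO with palmitic acid, PA, or vehicle, veh). Points are samples, long lines are means and bars are SD (n = 4 each). Pdk4 lies between 20.8 and 44.4 TPM in the 8 samples with palmitic acid and between 0.77 and 2.08 TPM in the 8 with vehicle, and Pdk2 and Pdk1 are highest in HKO cells with vehicle.

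The make-up of the kinase transcripts changed with these moves. Pdk4 made up 70.1% ± 5.78 of the summed TPM of the 4 kinase genes in FLOX cells with palmitic acid, against 9.14% ± 0.388 with vehicle (SD, n = 4 each). In HKO cells it made up 58.1% ± 5.70 with palmitic acid, against 3.16% ± 0.373 with vehicle. The share of Pdk2 was 13.7% with palmitic acid and 47.8% with vehicle in FLOX cells, and 19.0% with palmitic acid and 50.6% with vehicle in HKO cells. Pdk1 made up 15.8% with palmitic acid and 40.5% with vehicle in FLOX cells, and 22.3% with palmitic acid and 44.9% with vehicle in HKO cells. Summed kinase level was 45.0 ± 11.6 TPM with palmitic acid and 19.6 ± 1.81 TPM with vehicle in FLOX cells, and 46.1 ± 1.91 TPM with palmitic acid and 30.4 ± 2.63 TPM with vehicle in HKO cells. The HKO sum was above the FLOX sum in every sample with vehicle, and the ranges overlapped with palmitic acid (43.7 to 48.2 TPM in HKO cells and 31.5 to 57.7 TPM in FLOX cells). These sums and shares are descriptions and were not tested.

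**Figure D2:**
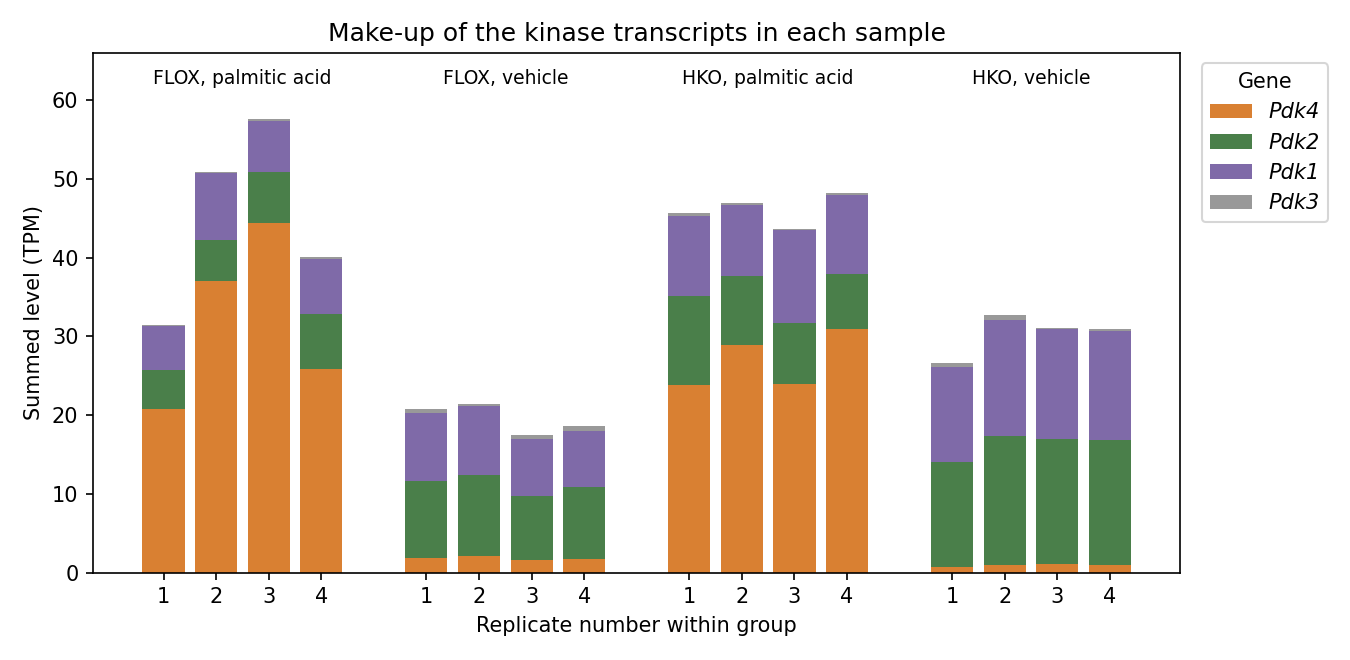
Summed level of the kinase genes in TPM (vertical axis) in each of the 16 samples (horizontal axis, replicate number within each group), with colours for Pdk4, Pdk2, Pdk1 and Pdk3. Pdk4 fills between 52.0% and 76.9% of each bar with palmitic acid and between 2.89% and 9.71% with vehicle.

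The phosphatase genes were low and did not pass the test in either genotype. Pdp1 (ENSMUSG00000049225) averaged 4.07 ± 0.429 TPM with palmitic acid and 3.27 ± 0.511 TPM with vehicle in FLOX cells, and 3.88 ± 0.541 TPM with palmitic acid and 3.27 ± 0.386 TPM with vehicle in HKO cells. Its log2 difference was 0.25 in FLOX cells (95% interval 0.02 to 0.48; limma adjusted p = 0.0805) and 0.19 in HKO cells (95% interval -0.04 to 0.42; limma adjusted p = 0.165). Pdp2 (ENSMUSG00000048371) averaged 3.67 ± 0.637 TPM with palmitic acid and 3.21 ± 0.180 TPM with vehicle in FLOX cells, and 3.48 ± 0.409 TPM with palmitic acid and 2.96 ± 0.0597 TPM with vehicle in HKO cells. Its log2 difference was 0.14 in FLOX cells (limma adjusted p = 0.293) and 0.18 in HKO cells (limma adjusted p = 0.165). In FLOX cells the phosphatase calls depended on the processing. Under median-ratio scaling the difference was 0.17 for Pdp1 (limma adjusted p = 0.18) and 0.06 for Pdp2 (limma adjusted p = 0.631). Quantile normalization gave 0.17 for Pdp1 (adjusted p = 0.159) and 0.053 for Pdp2 (adjusted p = 0.645). Without both FLOX libraries numbered 1 the difference was 0.39 for Pdp1 (limma adjusted p = 0.00906) and 0.25 for Pdp2 (limma adjusted p = 0.0338). In that fit the median over all tested genes was 0.13, against 0.096 with all samples. Leaving out FLOX palmitic acid sample 1 alone gave 0.31 for Pdp1 (adjusted p = 0.0395) and 0.24 for Pdp2 (adjusted p = 0.0288), and leaving out FLOX vehicle sample 1 alone gave 0.33 for Pdp1 (adjusted p = 0.0233). The ratio of summed kinase to summed phosphatase TPM, not tested, was 5.81 ± 1.25 with palmitic acid and 3.03 ± 0.167 with vehicle in FLOX cells, and 6.32 ± 0.752 with palmitic acid and 4.88 ± 0.270 with vehicle in HKO cells.

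Among the subunits, Pdhb, the E1 beta subunit, fell with palmitic acid in both genotypes. In FLOX cells, Pdhb (ENSMUSG00000021748) was at 81.2, 92.9, 97.8 and 92.8 TPM with palmitic acid, against 117.6, 106.2, 109.6 and 108.7 TPM with vehicle. In HKO cells it was at 79.9, 79.4, 75.7 and 83.8 TPM with palmitic acid, against 105.2, 124.6, 105.6 and 111.5 TPM with vehicle. Neither pair of groups overlapped. Pdhb fell by 0.28 ± 0.062 on the log2 scale in FLOX cells (SE; limma adjusted p = 0.00266) and by 0.48 ± 0.062 in HKO cells (limma adjusted p = 1.488e-05). The response in HKO minus that in FLOX was -0.20 ± 0.087 on the log2 scale, with an unadjusted p of 0.0343 and an adjusted p of 0.596 (limma).

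Pdha1, the E1 alpha subunit that the kinases phosphorylate, fell in HKO cells, where it was at 85.9, 94.6, 91.2 and 90.3 TPM with palmitic acid, against 100.1, 107.3, 102.7 and 101.5 TPM with vehicle. The fall was 0.18 ± 0.059 on the log2 scale (SE; limma adjusted p = 0.021), without overlap between the groups. It missed the threshold without HKO palmitic acid sample 1 (-0.16, adjusted p = 0.0624) and without HKO vehicle sample 2 (-0.16, adjusted p = 0.0576). In FLOX cells, Pdha1 (ENSMUSG00000031299) was at 85.7, 103.6, 105.5 and 105.3 TPM with palmitic acid, against 116.1, 104.5, 106.8 and 106.4 TPM with vehicle, with overlap and a log2 difference of -0.12 (limma adjusted p = 0.131). Under median-ratio scaling that difference was -0.22 and passed, with an adjusted p of 0.000969. Without both FLOX libraries numbered 1 it was -0.015, with a limma adjusted p of 0.775. A further gene, Map3k15, overlaps Pdha1 on the opposite strand and averaged 0.237 TPM. The ratio of Pdhb to Pdha1, not tested, was 0.913 ± 0.0298 with palmitic acid and 1.02 ± 0.00563 with vehicle in FLOX cells, and 0.882 ± 0.0548 with palmitic acid and 1.09 ± 0.0588 with vehicle in HKO cells.

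Dlat, the E2 core that carries the lipoyl arm, and Pdhx, the protein that ties the E3 enzyme to that core, did not pass the test with palmitic acid in either genotype. Dlat (ENSMUSG00000000168) ranged from 29.57 to 33.97 TPM with palmitic acid and from 32.2 to 34.4 TPM with vehicle in FLOX cells, and from 27.9 to 31.6 TPM with palmitic acid and from 27.1 to 32.6 TPM with vehicle in HKO cells. Pdhx (ENSMUSG00000010914) ranged from 25.3 to 26.7 TPM with palmitic acid and from 23.7 to 31.3 TPM with vehicle in FLOX cells, and from 26.5 to 30.1 TPM with palmitic acid and from 22.04 to 27.73 TPM with vehicle in HKO cells. The 95% intervals of the Dlat difference were -0.19 to 0.08 in FLOX cells and -0.12 to 0.15 in HKO cells on the log2 scale. For Pdhx they were -0.19 to 0.16 in FLOX cells and -0.03 to 0.32 in HKO cells. Levels among the 10 genes kept much of their order. Pdha1 and Pdhb stood at the top of all groups and Pdk3 at the bottom, while Pdk4 took rank 3 in FLOX cells with palmitic acid and rank 9 with vehicle, and rank 5 in HKO cells with palmitic acid and rank 9 with vehicle. With palmitic acid, Pdk4 overlapped both Dlat and Pdhx in each genotype, so its rank among these 3 genes is not settled. Pdk1 overlapped Pdk2 in all 4 groups.

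Of the 9 tested genes, 1 was called higher with palmitic acid in FLOX cells, where 23.0% of all tested genes were, and 2 were called lower, against 11.5% of all tested genes. In HKO cells 1 was called higher (29.4% of all tested genes) and 4 lower (13.1% of all). The median log2 difference over the 9 genes was -0.056 in FLOX cells and 0.015 in HKO cells, beside 0.096 and 0.11 over all tested genes. The deposited TPM put most called genes on the higher side. Median-ratio scaling between samples brought the median of all genes to 0.0081 in FLOX cells and 0.0052 in HKO cells, and the higher share of called genes to 45.3% in FLOX cells, against 66.7% as deposited, and to 46.9% in HKO cells, against 69.3% as deposited. Relative to that shift the differences were 3.42 for Pdk4, -0.68 for Pdk2 and -0.38 for Pdhb in FLOX cells, and 3.74 for Pdk4, -0.88 for Pdk2, -0.50 for Pdk1, -0.60 for Pdhb and -0.31 for Pdha1 in HKO cells, all with limma adjusted p under the threshold.

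**Figure D3:**
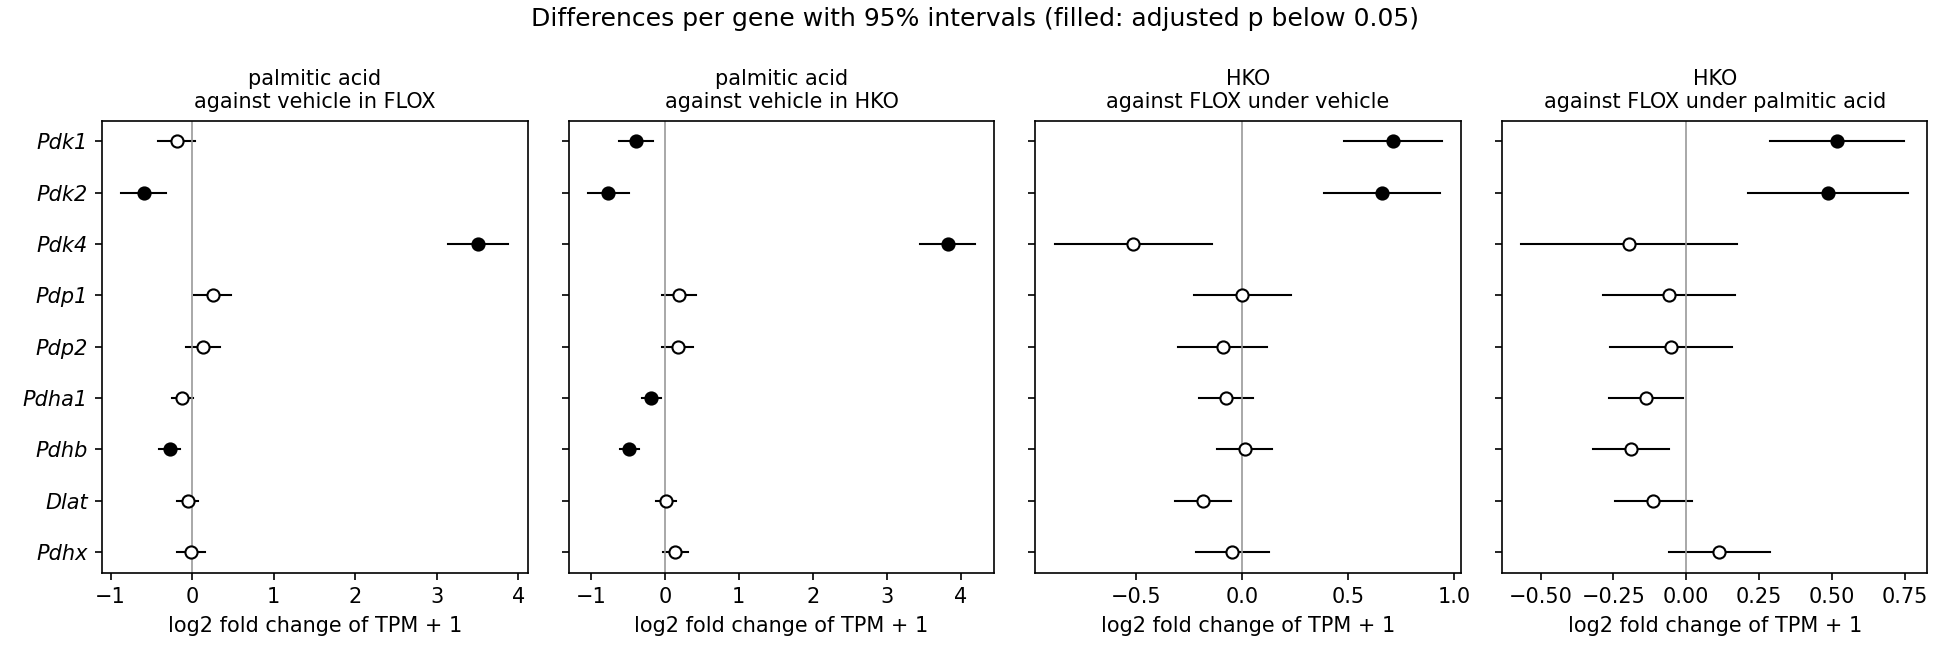
Difference of each of the 9 tested genes on the log2(TPM + 1) scale (horizontal axes, which differ between panels) for the 4 comparisons named above the panels, first-named minus second-named condition, with genes down the page. Points are limma estimates, bars are 95% intervals, and filled points have an adjusted p below 0.05. Pdk4 lies at 3.51 in FLOX and 3.82 in HKO cells with palmitic acid, and Pdk1 and Pdk2 lie right of 0 in both comparisons of HKO with FLOX.

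Between genotypes, the kinases Pdk1 and Pdk2 were higher in HKO than in FLOX cells. With vehicle, the samples listed above put Pdk1 at 13.6 ± 1.08 TPM in HKO cells and 7.94 ± 0.857 TPM in FLOX cells, a ratio of means of 1.71 (SD, n = 4 each). Pdk2 stood at 15.4 ± 1.41 TPM in HKO cells and 9.37 ± 0.938 TPM in FLOX cells, a ratio of 1.64. All HKO samples were above all FLOX samples for both genes. The log2 differences were 0.71 ± 0.11 for Pdk1 (SE; limma adjusted p = 0.000395) and 0.66 ± 0.13 for Pdk2 (limma adjusted p = 0.00314). These 2 genes were the only 2 of the 9 called higher, where 4.11% of all tested genes were. None was called lower, against 7.56% of all genes, while 2 lay lower at an unadjusted p under 0.05 with limma. These were Pdk4, at 0.96 ± 0.155 TPM in HKO cells and 1.80 ± 0.229 TPM in FLOX cells with no overlap (log2 difference -0.51 ± 0.17, limma adjusted p = 0.0718), and Dlat, at 29.2 ± 2.56 TPM in HKO cells and 33.2 ± 0.962 TPM in FLOX cells (-0.18 ± 0.062, limma adjusted p = 0.0679). Pdk4 passed without FLOX palmitic acid sample 1 (adjusted p = 0.0226) or 3 (adjusted p = 0.032), which enter only through the shared spread, and with a pseudocount of 0.1 TPM, where the difference was -0.84 (adjusted p = 0.00971). Dlat passed without HKO vehicle sample 4 (-0.24, adjusted p = 0.0209).

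With palmitic acid, Pdk1 stood at 10.2 ± 1.15 TPM in HKO cells and 6.88 ± 1.22 TPM in FLOX cells, a ratio of 1.49, and the log2 difference was 0.52 ± 0.11 (SE; limma adjusted p = 0.00587). Pdk2 stood at 8.74 ± 1.85 TPM in HKO cells and 5.91 ± 1.03 TPM in FLOX cells, a ratio of 1.48, and the log2 difference was 0.49 ± 0.13 (limma adjusted p = 0.0243). Neither gene overlapped between the genotypes, although the lowest HKO sample of Pdk2, at 7.04 TPM, was next to the highest FLOX sample, at 7.0 TPM. The Pdk2 call was lost without FLOX palmitic acid sample 1 (adjusted p = 0.0688) or 2 (adjusted p = 0.0695), and without HKO palmitic acid sample 1 (adjusted p = 0.0773) or 2 (adjusted p = 0.059), with differences of 0.42, 0.44, 0.37 and 0.48 in that order. Of the 9 genes, 2 were called higher (4.24% of all tested genes) and 0 lower (5.50% of all), with 2 lower at an unadjusted p under 0.05 in limma. Those were Pdhb (-0.19 ± 0.062, limma adjusted p = 0.067) and Pdha1 (-0.14 ± 0.059, limma adjusted p = 0.179). Both passed without FLOX palmitic acid sample 1, Pdhb at -0.24 (adjusted p = 0.0143) and Pdha1 at -0.21 (adjusted p = 0.00536), and Pdhb passed without HKO vehicle sample 2 (adjusted p = 0.0393). Pdk4 ranged from 23.8 to 30.9 TPM in HKO cells and from 20.8 to 44.4 TPM in FLOX cells, which overlap, with a log2 difference of -0.20 (95% interval -0.57 to 0.18; limma adjusted p = 0.577). In the test of the difference between the responses of the genotypes, limma called 0 of the 9 genes, where it called 0.194% of all genes, and 1 of the 9, Pdhb, had an unadjusted p under 0.05.

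Summed hepatocyte markers were lower with palmitic acid in both genotypes, as were Pdk2 and Pdhb, and Pdk1 in HKO cells. The sums were higher in HKO than in FLOX cells under each treatment, as were Pdk1 and Pdk2. Pdhb did not follow the sums between genotypes. Its mean was 111.7 TPM in HKO and 110.5 TPM in FLOX cells with vehicle, with overlap. With palmitic acid it was 79.7 TPM in HKO and 91.18 TPM in FLOX cells. The marker sums lay between 47210 and 48720 TPM with palmitic acid, and 61200 and 62440 TPM with vehicle, in HKO cells. In FLOX cells they lay between 44820 and 46350 TPM with palmitic acid, and 57480 and 58170 TPM with vehicle. Of the 10 markers, 9 fell with palmitic acid in each genotype, and 5 were higher and 1 lower in HKO than in FLOX cells with vehicle (7 and 1 with palmitic acid). Of all tested genes, 23.0% rose and 11.5% fell with palmitic acid in FLOX cells, and 29.4% rose and 13.1% fell in HKO cells. In HKO against FLOX cells 4.11% of all were higher and 7.56% lower with vehicle, and 4.24% and 5.50% with palmitic acid. Median-ratio scaling gave 10 markers lower in FLOX and 9 in HKO cells with palmitic acid. Between genotypes it gave 4 higher and 0 lower with vehicle, and 7 and 2 with palmitic acid. Cd68, the only macrophage marker tested, carried a sum of the list of 80.9 to 107.1 TPM with palmitic acid and 60.5 to 70.0 TPM with vehicle in HKO cells, and of 55.7 to 68.3 TPM with palmitic acid and 48.6 to 55.1 TPM with vehicle in FLOX cells. Spp1, which bile duct cells and stressed hepatocytes both express, carried the sum of the bile duct list, at 337.9 to 385.6 TPM with palmitic acid and 298.5 to 324.0 TPM with vehicle in HKO cells, and 196.5 to 241.6 TPM with palmitic acid and 180.3 to 191.2 TPM with vehicle in FLOX cells. Members of that list moved apart: with palmitic acid 2 of its 4 tested genes rose and 2 fell in each genotype, with list medians of -0.24 in FLOX and -0.37 in HKO cells on the log2 scale. Krt7 fell by 1.38 in FLOX and 0.99 in HKO cells, Krt19 fell by 0.67 in FLOX and 1.02 in HKO cells, Sox9 rose by 0.41 in FLOX and 0.62 in HKO cells, and Spp1 rose by 0.19 in FLOX and 0.25 in HKO cells. Under median-ratio scaling 1 rose and 2 fell in each genotype. That scaling called 1651 of all 11858 tested genes higher and 1990 lower in FLOX cells, and 2096 higher and 2375 lower in HKO cells. In HKO against FLOX cells with vehicle 2 of the 4 bile duct genes were higher (Spp1 at 0.87 and Krt19 at 0.43) and 1 lower (Krt7 at -0.61, limma adjusted p = 0.00112). With palmitic acid 1 was higher (Spp1 at 0.94). The part of these markers in the results for Pdk1, Pdk2 and Pdhb was not tested, and fewer cells of a type and less RNA per cell cannot be told apart in such bulk samples.

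Genes with the pattern most like that of each called gene were ranked by Pearson's r of log2(TPM + 1) over the 16 samples, as a description, since all samples share the group structure. For Pdk4 these included Plin2, a lipid droplet coat protein gene (r = 0.995), Acsbg1, an acyl-CoA synthetase gene (r = 0.994), Hmga2, a chromatin protein gene (r = 0.992), and Olfr1033 (r = 0.992). Mean Plin2 was 2356 TPM with palmitic acid and 400 TPM with vehicle in HKO cells, and 2626 TPM with palmitic acid and 476.5 TPM with vehicle in FLOX cells. For Pdk2 they were Uroc1, a histidine breakdown enzyme gene (r = 0.961), Cln6 (r = 0.959) and Selenop, a plasma selenoprotein of hepatocytes (r = 0.956). For Pdk1 they were Plg, which encodes plasminogen (r = 0.962), P4ha2, a collagen prolyl hydroxylase gene (r = 0.958), and Rasgef1b (r = 0.954). For Pdhb they were Vdac1, a channel of the mitochondrial outer membrane (r = 0.963), Nuak1 (r = 0.958) and Col12a1 (r = 0.957). For Pdha1 they were Pgrmc1 (r = 0.954), Hsd17b7, a cholesterol synthesis enzyme gene (r = 0.954), and Slc33a1, an acetyl-CoA transporter gene (r = 0.949).

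The wider pathway was read from gene lists around the complex. Of all tested genes, 23.0% rose and 11.5% fell with palmitic acid in FLOX cells, and 29.4% rose and 13.1% fell in HKO cells. Dld, the E3 enzyme shared with other complexes, fell with palmitic acid by 0.14 ± 0.037 on the log2 scale in FLOX cells (SE; limma adjusted p = 0.00706) and by 0.16 ± 0.037 in HKO cells (limma adjusted p = 0.00248), while Pdpr, a regulator of the phosphatase, did not pass (adjusted p = 0.838 in FLOX and 0.699 in HKO cells). Dld was at 54.9 ± 1.46 TPM with palmitic acid and 60.8 ± 1.81 TPM with vehicle in FLOX cells, and at 53.3 ± 2.01 TPM with palmitic acid and 59.7 ± 1.28 TPM with vehicle in HKO cells. Of 11 tested genes that supply pyruvate, carry it or use it otherwise, 8 fell and 0 rose with palmitic acid in FLOX cells, and 7 fell and 0 rose in HKO cells. Their median log2 difference was -0.24 in FLOX and -0.23 in HKO cells. The alanine transaminase gene Gpt was at 97.1 ± 6.57 TPM with palmitic acid and 151.3 ± 3.15 TPM with vehicle in FLOX cells (log2 difference -0.64 ± 0.045, limma adjusted p = 3.56e-08), and fell by 0.64 in HKO cells too. Slc16a7, a monocarboxylate transporter gene, fell by 0.38 in FLOX and 0.94 in HKO cells, and Pklr, the liver pyruvate kinase, fell by 0.34 in FLOX and 0.71 in HKO cells. Gpt2 fell by 0.36 in FLOX and 0.47 in HKO cells.

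The TCA cycle list, of 14 tested genes, had 4 lower and 0 higher with palmitic acid in FLOX cells and 5 lower and 0 higher in HKO cells, with medians of -0.049 and -0.024 on the log2 scale. Citrate synthase (Cs), which takes up the acetyl-CoA made by the complex, fell by 0.21 ± 0.042 in FLOX cells (SE; limma adjusted p = 0.00117) and by 0.24 ± 0.042 in HKO cells (limma adjusted p = 0.000241). Idh3b and Sdha fell by 0.18 and 0.15 in FLOX cells, and by 0.16 and 0.22 in HKO cells. Among 8 genes of the sister complexes for branched-chain and 2-oxoglutarate oxidation, 2 fell and 0 rose in FLOX cells, and 4 fell and 1 rose in HKO cells. Bckdhb, an E1 subunit of the branched-chain complex, fell by 0.32 in FLOX and 0.43 in HKO cells, Ogdh fell by 0.27 in HKO cells, and Bckdk, the kinase of that complex, rose by 0.26 in HKO cells. Of 12 tested genes for the lipoate and thiamine cofactors, 2 rose and 2 fell in each genotype. Over all tested genes 23.0% rose and 11.5% fell in FLOX cells, and 29.4% rose and 13.1% fell in HKO cells. The thiamine transporter gene Slc19a2 rose by 0.27 in FLOX and 0.31 in HKO cells. Under median-ratio scaling the cofactor list had 1 higher and 3 lower in FLOX cells and 1 higher and 4 lower in HKO cells, and the sister complexes had 0 higher and 5 lower in HKO cells. With that scaling 1651 of all 11858 tested genes were higher and 1990 lower in FLOX cells. In HKO cells 2096 were higher and 2375 lower.

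Of 18 genes known as targets of PPAR alpha, 13 rose and 1 fell with palmitic acid in FLOX cells, and 12 rose and 1 fell in HKO cells, with medians of 0.35 and 0.38 on the log2 scale. Creb3l3, a liver transcription factor of fasting, was at 256.3 ± 20.1 TPM with palmitic acid and 82.9 ± 6.70 TPM with vehicle in FLOX cells, and at 233.1 ± 8.17 TPM with palmitic acid and 87.6 ± 5.51 TPM with vehicle in HKO cells. It rose by 1.62 ± 0.064 on the log2 scale in FLOX cells (SE; limma adjusted p = 7.736e-11) and by 1.40 ± 0.064 in HKO cells (limma adjusted p = 1.646e-10). Angptl4, a secreted lipase inhibitor, rose by 1.38 in FLOX and 1.59 in HKO cells. The member that fell was Fgf21, a fasting hormone gene, by 0.72 in FLOX and 0.44 in HKO cells. Under median-ratio scaling the list had 11 higher and 2 lower in FLOX cells, and 10 higher and 3 lower in HKO cells. Over all 11858 tested genes that scaling gave 1651 higher and 1990 lower in FLOX cells, and 2096 and 2375 in HKO cells. Of 10 tested regulators of Pdk4, 3 rose and 1 fell in FLOX cells, and 3 rose and 2 fell in HKO cells. These counts lie near the shares of all tested genes. Those were 23.0% higher and 11.5% lower in FLOX cells, and 29.4% higher and 13.1% lower in HKO cells. Hif1a rose by 0.47 in FLOX and 0.40 in HKO cells, and Ppard rose by 0.39 in FLOX and 0.35 in HKO cells. Pparg fell by 0.57 in FLOX and 0.31 in HKO cells. Median-ratio scaling gave 2 higher and 3 lower regulators in FLOX cells, and 2 higher and 4 lower in HKO cells. Ppara itself did not pass in either genotype (limma adjusted p = 0.886 in FLOX and 0.0614 in HKO cells), nor did Foxo1 (adjusted p = 0.822 in FLOX and 0.981 in HKO cells). Ppara was at 11.6 ± 2.72 TPM with palmitic acid and 14.9 ± 1.42 TPM with vehicle in HKO cells. In FLOX cells it was at 13.9 ± 1.33 TPM with palmitic acid and 13.7 ± 2.53 TPM with vehicle.

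**Figure D4:**
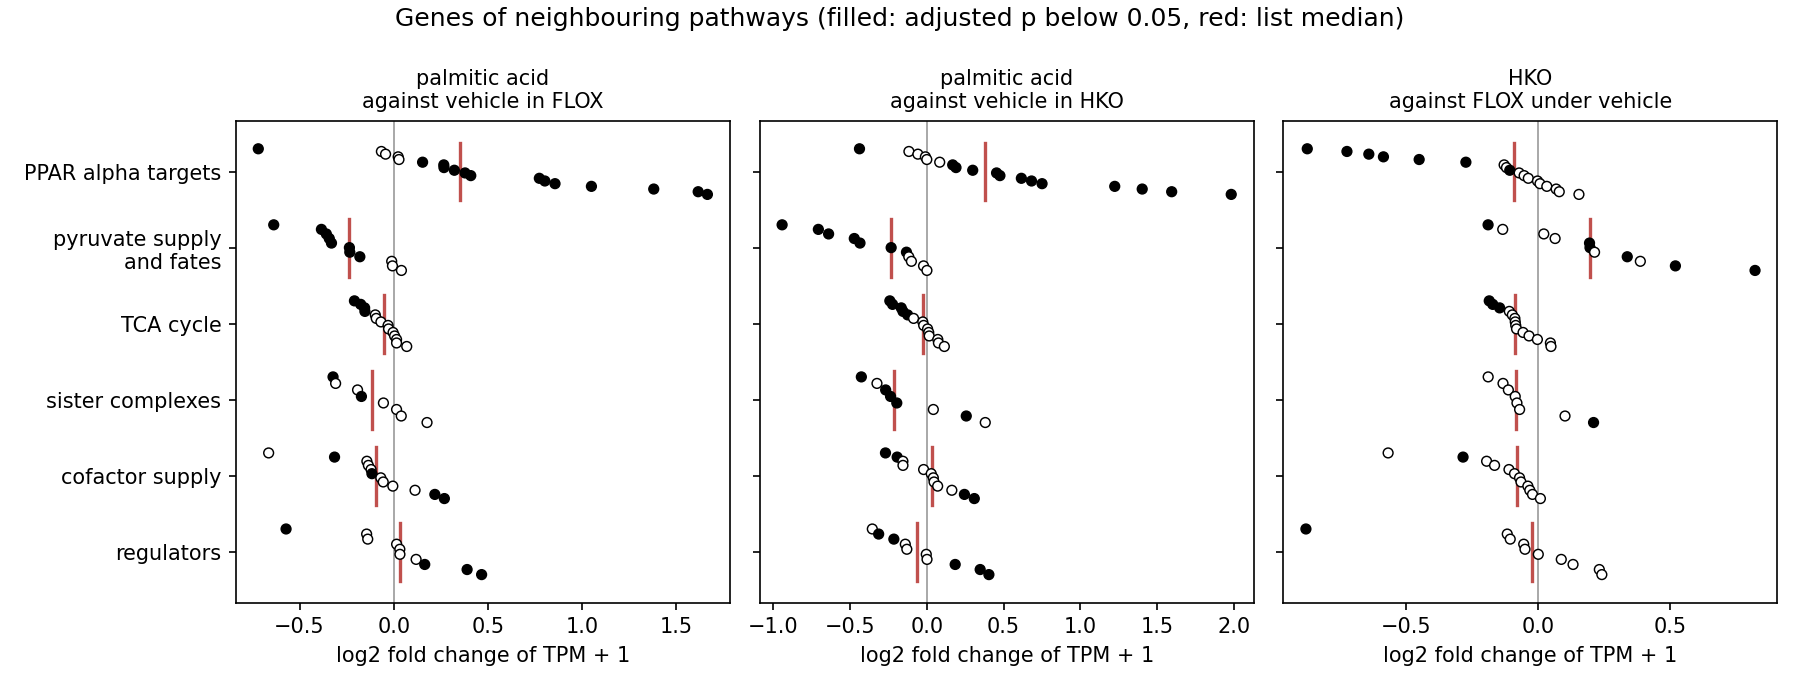
Difference of each tested gene of 6 pathway lists on the log2(TPM + 1) scale (horizontal axes, which differ between panels) with palmitic acid in FLOX cells, with palmitic acid in HKO cells, and in HKO against FLOX cells with vehicle. Points are genes, filled where the adjusted p is below 0.05, and red bars are list medians. The PPAR alpha target medians lie at 0.35 and 0.38 with palmitic acid, and the pyruvate supply medians at -0.24 and -0.23.

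Between genotypes, the pyruvate supply list had 5 higher and 1 lower of 11 in HKO against FLOX cells with vehicle, and 4 higher and 0 lower with palmitic acid, with medians of 0.20 and 0.019 on the log2 scale. Of all tested genes, 4.11% were higher and 7.56% lower with vehicle, and 4.24% higher and 5.50% lower with palmitic acid. Pkm, the pyruvate kinase of non-hepatic and dividing cells, was at 94.6 ± 4.19 TPM in HKO cells and 53.2 ± 5.95 TPM in FLOX cells with vehicle (log2 difference 0.82 ± 0.11, limma adjusted p = 0.000154). Ldha, the lactate dehydrogenase subunit that makes lactate from pyruvate, was at 959 ± 22.5 TPM in HKO cells and 668.1 ± 29.4 TPM in FLOX cells with vehicle (0.52 ± 0.040, limma adjusted p = 3.161e-07). With palmitic acid the differences were 0.84 for Pkm and 0.46 for Ldha. Mpc1, a subunit of the mitochondrial pyruvate carrier, was higher by 0.20 on the log2 scale in HKO cells under each treatment. Of the PPAR alpha targets, 7 of 18 were lower and 0 higher in HKO cells with vehicle and 3 were lower and 0 higher with palmitic acid. Cyp4a14, a fatty acid hydroxylase gene, differed by -0.88 on the log2 scale with vehicle and by -1.02 with palmitic acid, and Angptl4 differed by -0.73 with vehicle and by -0.51 with palmitic acid. Of the 10 regulators, 1 was called under each treatment, Pparg, which differed by -0.88 with vehicle and by -0.62 with palmitic acid. The TCA list had 3 of 14 lower with vehicle and 2 with palmitic acid, but 0 under either treatment with median-ratio scaling, and 0 with vehicle and 1 with palmitic acid under quantile normalization. Of the sister complexes, 1 was higher with vehicle (Bckdha, 0.21 on the log2 scale) and 1 lower with palmitic acid (Dbt, -0.18), and of the cofactor genes 1 was lower with vehicle (Lipt1, -0.29), a call lost under both other scalings, and 0 were called with palmitic acid. Median-ratio scaling also moved the higher share of all called genes to 57.8% with vehicle, against 35.2% as deposited, and to 55.8% with palmitic acid, against 43.5% as deposited. No gene of these lists passed the interaction test in limma, where 0.194% of all tested genes did.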

How the data were processed

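Stranded total RNA libraries of 16 hepatocyte samples were sequenced, per the labels' protocols. The deposited values were TPM computed by the authors and rounded to 2 decimals, and the submitters' processing notes name RSEM 1.3.3. Those notes list a human genome build, which cannot be that of mouse gene IDs, so no gene position was taken from it. Promoter positions are those of RefSeq (build GRCm38.p6), and the overlap of Map3k15 with Pdha1 is that of a mouse GENCODE annotation. The aligner and the annotation behind the TPM are likewise not given in the sources used here. Because TPM sums to a fixed total, a change in a few abundant genes shifts all others. Sums over the deposited genes ran from 975816 to 984870.

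Symbols came from a gene-name table that matched 52083 of 55416 IDs. Genes with at least 1 TPM in at least 4 samples were tested by limma 3.58.1 (R 4.3.3) on the log2 of TPM plus a pseudocount of 1. The 16 samples entered a single model of the 4 group means, with the prior variance following the mean level. Tests were two-sided, with Benjamini-Hochberg adjustment over the 11858 genes tested and a threshold of 0.05. Palmitic acid was set against vehicle within FLOX and within HKO cells, HKO against FLOX cells with either treatment, and the responses of both genotypes against each other. The fits were also run on simulated data with independent normal values per gene and no outlying samples. That run does not bear on scaling between samples or on single libraries. Alternatives were another pseudocount, other filters, median-ratio scaling, quantile normalization, no trend, only the groups compared, a replicate block, sample quality weights and left-out samples. Sums, shares and ratios of TPM were computed per sample.

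The 10 genes and the gene lists were chosen with earlier results of these data known. All 10 are named, with up to 3 genes per list that passed the threshold with the largest differences in a comparison, and up to 5 genes for Pdk4 and 3 for the other called genes with the highest Pearson r. Of these the text names a part, and some are not reported here. Fgf21, Mpc1, Pdpr, Ppara, Foxo1, Timd4, Cftr, Epcam, Sox9, Krt19, Krt7, Alas2, Cidea and Map3k15, and Idh3b in 1 comparison, stand outside that rule and were named after their values were seen. Promoter windows came from a RefSeq table.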

Additional observations from a re-analysis of the deposited data

Results flagged for a closer look

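In 40 groups of 4 values, 10 genes in 4 groups, 2 samples stood farther from the rest of their group than Dixon's criterion allows, a criterion that chance alone meets in about 5% of groups. Pdha1 was at 85.71 TPM in FLOX palmitic acid sample 1, while the other samples of that group were between 103.6 and 105.5 TPM. This library also has the highest score on principal component 3, at 19.0, and the Pdha1 difference of HKO from FLOX cells with palmitic acid passed the test without it. Pdk3 was at 0.43 TPM in HKO palmitic acid sample 1, while the other samples of that group were between 0.24 and 0.26 TPM. The number of reads behind levels this low is unknown.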

How the results depend on the processing

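Of 26 alternatives, each run on the 9 tested genes where it could be, none turned a called difference round. Pdk4, Pdk2 and Pdhb with palmitic acid in both genotypes, Pdk1 with palmitic acid in HKO cells, and Pdk1 and Pdk2 in HKO against FLOX cells with vehicle passed in every one. The Pdk4 difference ranged from 3.34 to 4.03 in FLOX and from 3.74 to 4.67 in HKO cells. Over the other results, 1033 of 1099 values kept direction and call, 12 lost the call, 28 gained it and 26, all uncalled, changed sign. The causes were not tested.

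Genes called higher with palmitic acid in FLOX cells (1) numbered 3 with sample quality weights and 3 without both FLOX libraries numbered 1, and 1 to 3 leaving out 1 sample. Of all 11858 tested genes, 2726 were called higher there in the main fit, 4050 with weights and 3928 without both libraries. Genes called lower there (2) numbered 4 under median-ratio scaling, where 1990 of all tested genes were, against 1358 in the main fit. Genes called lower in HKO against FLOX cells with vehicle (0) numbered 1 with a pseudocount of 0.1 TPM, 1 under quantile normalization, 1 with only the 2 groups compared, 2 with quality weights, 1 without both FLOX libraries, and 0 to 1 leaving out 1 sample. Of all tested genes, 897 were called lower there in the main fit, 910 with that pseudocount and 656 under quantile normalization. The count was 800 with only the 2 groups, 1278 with weights and 927 without both libraries. With palmitic acid, genes called higher (2) numbered 1 with no filter, 1 with only the 2 groups, 1 without both FLOX libraries, and 1 to 2 leaving out 1 sample, Pdk2 being the one lost. Of all tested genes, 503 were called higher there in the main fit, 319 with only the 2 groups and 479 without both libraries. With no filter 450 of 25963 genes were. Genes called lower (0) numbered 1 under median-ratio scaling, 2 with quality weights, 2 without both FLOX libraries, and 0 to 2 leaving out 1 sample. Of all tested genes, 652 were called lower there in the main fit, 465 under median-ratio scaling, 809 with weights and 757 without both libraries.

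For palmitic acid effects the replicate block had a term per genotype and number. For HKO against FLOX cells it used only the 2 groups compared, pairing samples of different genotype by number alone. The block left 0 of the 2 genes higher in HKO against FLOX cells with palmitic acid (Pdk1 adjusted p = 0.0919, Pdk2 adjusted p = 0.19). Pdk2 was already lost with only the 2 groups and no block (limma adjusted p = 0.0995). Of all tested genes, 252 stayed higher there, against 503 in the main fit. Of the 4 genes lower with palmitic acid in HKO cells the block left 3 (Pdha1 adjusted p = 0.0626), and of all tested genes 1343, against 1549. The block changed no other call of the 9 genes. Deviations of same-numbered samples correlated between -0.15 and 0.086 within a genotype and between -0.11 and 0.11 across genotypes, and the titles do not say whether a number marks a shared mouse or culture.

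Signs changed for Pdhx with palmitic acid in FLOX cells (0.024 with weights, 0.058 without both FLOX libraries, -0.065 to 0.064 leaving out 1 sample), Dlat with palmitic acid in HKO cells (-0.10 under median-ratio scaling, -0.085 under quantile normalization, -0.018 to 0.068), and the interaction of Pdp2 (-0.036 with weights, -0.071 without both FLOX libraries, -0.064 to 0.093). Between genotypes with vehicle they changed for Pdp1 (-0.0071 under quantile normalization, -0.043 to 0.082), Pdhb (-0.040 to 0.043) and Pdhx (0.0099 with weights, 0.033 without both FLOX libraries, -0.096 to 0.033), and with palmitic acid for Pdp2 (-0.15 to 0.0031). A filter of 5 TPM removed Pdp1 and Pdp2, and the interaction has no fit with only 2 groups.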
